A study of Homo sapiens with 4 samples.

Results

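The ATP-binding cassette (ABC) transporter genes were taken as all genes of the count table whose symbol consists of ABC, a subfamily letter from A to G and a number. The pattern matched 46 genes, and ABCC13 was left out because the annotation describes it as a pseudogene (it had 0 counts in all 4 libraries). The remaining 45 members, of 58051 genes in the table, comprised 12 ABCA, 9 ABCB, 11 ABCC, 4 ABCD, 1 ABCE, 3 ABCF and 5 ABCG genes. They were followed in IGROV1, an established human ovarian carcinoma line, by sequencing polyadenylated RNA from the cisplatin-resistant line (CR) and from its wild-type parent (WT), with 2 libraries each. CR was selected from WT with 4 h pulses of cisplatin, a DNA-crosslinking platinum compound. Each pulse was followed by 3 weeks without drug, and concentrations rose over 6 cycles and 5 months. Both lines were harvested while growing without drug, and the labels name no engineered allele in either. All libraries of a group are cultures of 1 line, so p-values measure the spread between these cultures and not between independent selections.

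ABC proteins bind and hydrolyse ATP in a conserved nucleotide-binding domain, and most use that energy to move a substrate across a membrane. The family includes the exporters that drive multidrug resistance, of which P-glycoprotein (ABCB1) carries bulky hydrophobic drugs and the ABCC proteins carry organic anions and glutathione conjugates. Other members move sterols and phospholipids, serve the mitochondrion, the lysosome or the peroxisome, or, in ABCE1 and the ABCF group, have no membrane domain and act on the ribosome. Cisplatin is a poor substrate of P-glycoprotein, while ABCC2 has been studied as an exporter of platinum bound to glutathione.

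The libraries held 24727362 and 24008899 counts in CR and 23886257 and 24264458 counts in WT. Mitochondrially encoded transcripts made up 8.81% and 10.1% of counts in CR and 10.3% and 6.68% in WT. The WT libraries lay further apart than the CR libraries, with a chi-square between replicates, divided by its degrees of freedom, of 14.1 for the CR pair and 86.1 for the WT pair. Of 9 epithelial markers, 8 were measured, of which 2 were higher (CDH1, EPCAM) and 5 lower (KRT7, KRT8, KRT18, MSLN, MUC16) in CR. Among all genes tested, 5.44% were higher and 8.1% lower by the test described below. The summed level of the 9 markers was 2174 and 2259 CPM (counts scaled to library size) in CR and 4667 and 3432 CPM in WT. The ovarian lineage factor PAX8 stood at 397 ± 2.503 CPM in CR and 416 ± 184 CPM in WT (SD, n = 2 each), whereas the Wilms tumour gene, another marker of the list, was below 1 CPM in every library. Of 5 fibroblast markers, COL1A2, DCN and LUM were at 0 in every library. COL1A1 was lower in CR, with 1.11 and 1.64 CPM, against 57.1 and 31.4 CPM in WT (log2 fold change -5.005, edgeR adjusted p = 0.000575). PDGFRB had 1.55 and 1.19 CPM in CR, against 2.18 and 2.97 CPM in WT, and did not pass. The 5 summed to 2.67 and 2.82 CPM in CR and 59.3 and 34.4 CPM in WT, and the 4 leukocyte markers summed to at most 2.29 CPM. The 3 endothelial markers summed to 33.4 and 29.8 CPM in CR and 67.0 and 85.3 CPM in WT, with PECAM1 higher and CDH5 lower in CR. The part of these marker differences in the ABC results was not tested. In bulk RNA, fewer cells with a transcript and less of it per cell cannot be told apart.

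The resistant line carried far more ABCB1 and ABCC2 transcript than its parent, and most of the family differed little by comparison. ABCB1 was 34.5-fold higher in CR and ABCC2, the canalicular organic anion exporter also known as MRP2, was 14.8-fold higher. At much lower levels, ABCB4, the phosphatidylcholine exporter of the bile canaliculus, was 11.9-fold higher and ABCA12, a lipid transporter of keratinocytes, 3.88-fold higher. Of the 45 members, 36 had enough counts to be tested. Among those 36, 4 passed as higher and 0 as lower in CR. The test was edgeR's quasi-likelihood test, and genes passed at a Benjamini-Hochberg adjusted p of 0.05 or less over all 17304 genes tested. Over all genes tested, 13.5% passed in either direction, 5.44% as higher and 8.1% as lower. Among members the share called higher was 11.1%. Of the 4, ABCB4 and ABCA12 entered the test through CR, the only group in which both of their libraries had enough counts. At an unadjusted p of 0.05, 9 of the 36 passed (25.0%), close to the 26.1% of all genes tested. DESeq2 called 4 higher and 1 lower, and limma-voom 4 and 0.

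The counts of calls depended on which libraries were used. Leaving out CR replicate 1 left 2 members higher and 0 lower, and leaving out CR replicate 2 left 3 and 0. There were 17 higher and 5 lower members when WT replicate 1 was dropped, and 13 and 3 when WT replicate 2 was dropped. With a WT library left out, the spread is taken from the CR pair alone and calls over all genes increased as well. They numbered 3647 higher and 3715 lower when WT replicate 1 was dropped, and 3882 and 4004 when WT replicate 2 was dropped, against 942 and 1402 with all 4 libraries. ABCB1 and ABCC2 were called higher in each of these 4 fits.

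**Figure D1:**
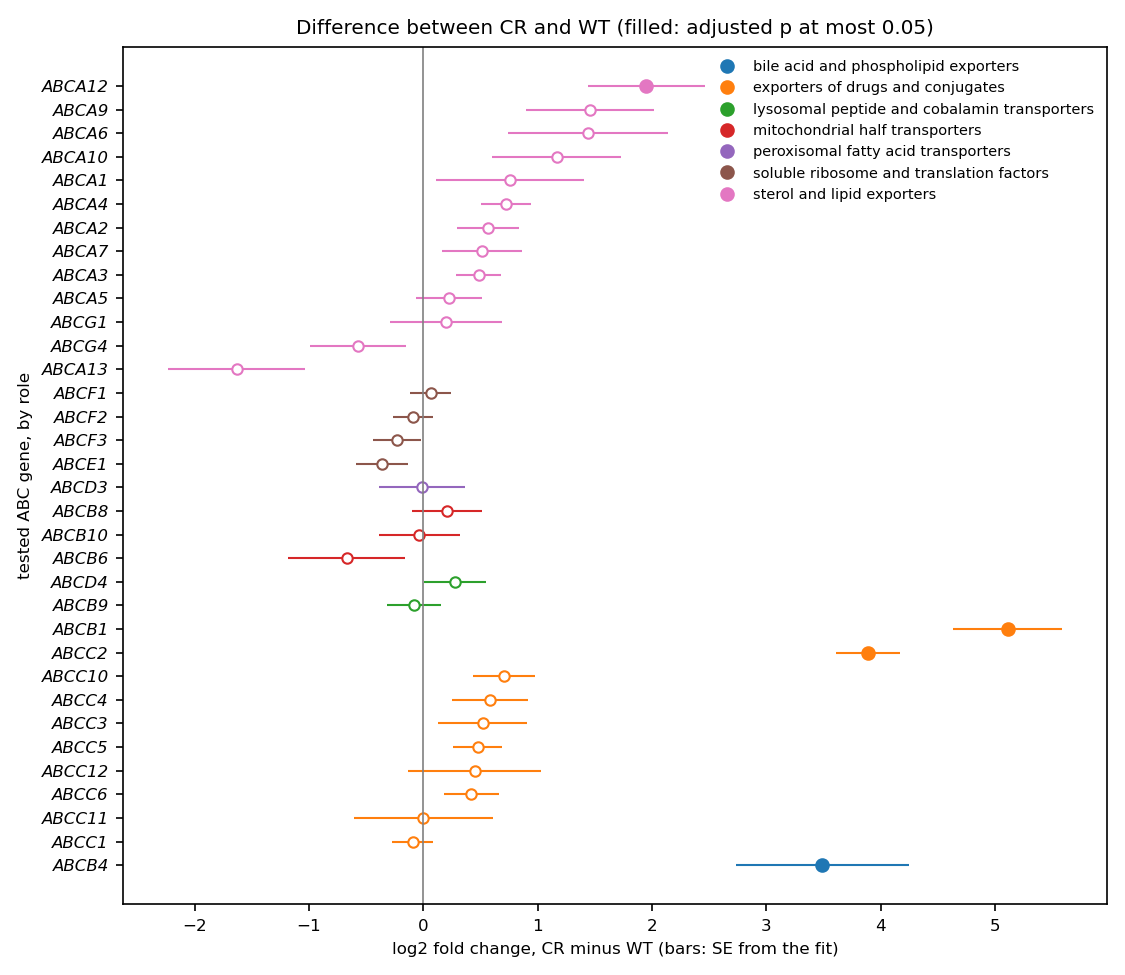
Log2 fold change (CR minus WT, horizontal axis) of each tested ABC gene reported here, with bars for the SE from the fit and genes ordered by role down the page. Filled points mark the 4 genes with adjusted p at most 0.05 (ABCB1, ABCC2, ABCB4 and ABCA12), which lie at 5.11, 3.89, 3.49 and 1.95, while every other gene shown lies between -1.63 and 1.46.

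ABCB1 (ENSG00000085563, chromosome 7, 87503633 to 87713323, minus strand) had 5569 and 4824 counts in CR, against 76 and 211 counts in WT. Scaled to library size these were 222 and 197 CPM in CR, against 3.26 and 8.84 CPM in WT. Both CR libraries lay far above both WT libraries, and the WT libraries differed 2.71-fold between themselves. The 34.5-fold ratio of summed counts had a 95% counting interval of 30.7 to 38.9, and such intervals and floors cover counting error only. The log2 fold change was 5.11 (SE 0.48, edgeR adjusted p = 0.000858). It was 4.57 when WT replicate 1 was dropped and 6.01 when WT replicate 2 was dropped.

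ABCC2 (ENSG00000023839, chromosome 10, 99782640 to 99852594, plus strand) had 6058 and 5416 counts in CR, against 286 and 453 counts in WT. This equalled 241 and 222 CPM in CR, against 12.3 and 19.0 CPM in WT. The groups did not overlap and the CR libraries lay close together. The log2 fold change was 3.89 (SE 0.28, edgeR adjusted p = 0.000342), with a counting interval of 13.7 to 16.0 for the 14.8-fold ratio. It ranged from 3.61 to 4.24 when each library was left out in turn.

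RefSeq promoters were matched for 35 members. The promoter windows of both genes are shown because both genes were low in WT and rose in CR, beside that of ABCF2, an ABC gene of high and similar level in both lines. They run from 250 bases before to 50 bases after the annotated start (RefSeq, GRCh38.p14), 5′ to 3′ on the gene's strand. The windows are chr7:87713246-87713545 (minus strand) for ABCB1, chr10:99782390-99782689 (plus strand) for ABCC2 and chr7:151227156-151227455 (minus strand) for ABCF2. Capitals mark each CG dinucleotide (CpG), the site of DNA methylation in mammals.
ABCB1: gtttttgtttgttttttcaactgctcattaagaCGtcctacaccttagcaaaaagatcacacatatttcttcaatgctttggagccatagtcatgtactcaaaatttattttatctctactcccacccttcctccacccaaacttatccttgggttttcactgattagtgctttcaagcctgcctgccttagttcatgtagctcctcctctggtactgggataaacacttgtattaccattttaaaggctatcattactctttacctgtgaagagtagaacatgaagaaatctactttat
ABCC2: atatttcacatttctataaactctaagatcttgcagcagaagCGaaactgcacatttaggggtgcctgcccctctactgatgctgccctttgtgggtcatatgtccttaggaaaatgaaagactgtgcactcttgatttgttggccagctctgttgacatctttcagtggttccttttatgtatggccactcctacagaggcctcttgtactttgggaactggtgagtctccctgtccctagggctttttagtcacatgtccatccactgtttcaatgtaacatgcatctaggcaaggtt
ABCF2: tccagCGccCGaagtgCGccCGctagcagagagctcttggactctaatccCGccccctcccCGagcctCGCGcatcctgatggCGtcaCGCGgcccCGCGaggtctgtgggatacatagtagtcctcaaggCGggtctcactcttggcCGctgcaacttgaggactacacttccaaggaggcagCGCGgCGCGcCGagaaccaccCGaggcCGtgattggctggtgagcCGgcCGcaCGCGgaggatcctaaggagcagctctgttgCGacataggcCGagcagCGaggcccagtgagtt

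The ABCB1 and ABCC2 windows each held 1 CpG, fewer than most promoters: only 4.16% of 27305 RefSeq promoters of this length held fewer. The windows of ABCA12, ABCA9 and ABCC11 also held 1 CpG, and of these ABCA12 alone was called higher. Whether CpG content bears on the difference between the lines was not tested. The ABCF2 window held 29, more than 76.0% of promoters. GC content was 37.7% in the ABCB1 window, 45.0% in that of ABCC2 and 65.3% in that of ABCF2. On both strands, 5 short motifs were searched. The box bound by SP1 was searched as GGGCGG and occurred in 44.6% of all promoters. The CCAAT box occurred in 35.7%. The core of the antioxidant response element, searched as TGACNNNGC, occurred in 13.6%, and the AP-1 element, searched as TGANTCA, in 7.76%. The TATA box was searched as TATAAA and occurred in 12.0%. ABCC2 matched TATAAA at position -236 from the start and no other motif, and ABCB1 matched none. ABCF2 matched the SP1 box at -201 and the CCAAT box at -35, both on the opposite strand. A match is a description of letters and not of a bound site. ABCB1 has 4 annotated coding transcripts whose starts span 112250 bp, 3 of them inside the printed window, and counts per gene do not tell which start was used. The start at 87601073 lies outside this window, and its surroundings were not searched. The CpG and motif results of ABCB1 therefore describe the printed window alone.

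ABCB4 (ENSG00000005471, chromosome 7, 87401697 to 87480435, minus strand) had 33 and 17 counts in CR, against 3 and 1 in WT. Its levels were 1.31 and 0.695 CPM in CR, against 0.129 and 0.0419 CPM in WT. The groups did not overlap, but both were close to the limit of detection, and the gene entered the test through CR. The log2 fold change was 3.49 (SE 0.76, edgeR adjusted p = 0.0248), and the counting interval of the 11.9-fold ratio ran from 4.37 to 45.4. Without CR replicate 1 it was no longer called (edgeR adjusted p = 0.0867). ABCB4 is the nearest relative of ABCB1, and 2.82% of the 50-base words of its longest coding transcript also occur in transcripts of other genes, chiefly ABCB1. Whether reads of ABCB1 contributed to its counts was not tested.

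ABCA12 (ENSG00000144452, chromosome 2, 214931542 to 215138428, minus strand), known from the lipid lamellae of skin, had 57 and 49 counts in CR, against 8 and 18 in WT. This was 2.27 and 2.00 CPM in CR, against 0.343 and 0.754 CPM in WT. The groups did not overlap, and the gene entered the test through CR. The log2 fold change was 1.95 (SE 0.51, edgeR adjusted p = 0.0498), just inside the threshold, and the counting interval of the 3.88-fold ratio was 2.51 to 6.22. The call was lost without CR replicate 1 (edgeR adjusted p = 0.194), without CR replicate 2 (0.144) and with DESeq2 size factors (0.0507). Just outside the threshold lay ABCA4, the retinal flippase, with 27.2 CPM in both CR libraries and 16.8 and 16.2 CPM in WT (log2 fold change 0.72, edgeR adjusted p = 0.0811).

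Over the tested members, including these 4 genes, positive differences were more common than negative ones. A positive log2 fold change was found in 25 of 36 members (69.4%), compared with 49.4% of all genes tested. The median log2 fold change was 0.40 for members and -0.01 for all genes tested. In 16 of the 36 members (44.4%) both CR libraries lay above both WT libraries, which held for 27% of all genes tested. In 6 members (16.7%) both lay below, against 28.2% of all genes, and in 14 the groups overlapped. Without the 4 called genes, 21 of 32 members (65.6%) had a positive log2 fold change, both CR libraries lay above both WT libraries in 12 (37.5%), and the median log2 fold change was 0.25. Of the 36, 6 (ABCA1, ABCA6, ABCA9, ABCA10, ABCA12 and ABCB4) had both libraries over the low-count filter in CR but not in WT, so they entered the test through CR, and 0 did so through WT. Among all genes tested, 8.74% entered through CR and 5.81% through WT. Of the other 30 members, 19 (63.3%) had a positive log2 fold change, against 48.1% of the other genes, with a median of 0.22 for members and -0.02 for genes. An absolute log2 fold change of at least 1 was found in 8 members (22.2%) and in 20.7% of all genes. Members were chosen as a family and not tested as a set, so these shares are descriptions.

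Levels of different genes were compared as CPM per kb of annotated exon. In CR, ABCB1 ranked 2 of 45 members and ABCC2 ranked 4, whereas in WT they ranked 23 and 19. ABCB1 stood at 38.2 and 34.0 CPM per kb in CR, against 0.561 and 1.52 CPM per kb in WT. ABCC2 stood at 30.8 and 28.3 CPM per kb in CR, against 1.56 and 2.42 CPM per kb in WT. The order in CR was ABCF2, ABCB1, ABCA3, ABCC2, ABCF1 and ABCC1, with means of 36.5, 36.1, 30.1, 29.5, 29.1 and 20.0 CPM per kb. The leading pair cannot be ordered, since the ABCF2 libraries (37.6 and 35.4 CPM per kb) fell between those of ABCB1. The level and rank of ABCF2 are also uncertain, because 53.5% of its 50-base words recur in other transcripts. ABCA3, ABCC2 and ABCF1 also overlapped, with ABCA3 at 33.7 and 26.5 CPM per kb and ABCF1 at 28.9 and 29.4 CPM per kb. In WT the order was ABCF2, ABCF1, ABCA3, ABCC1, ABCE1 and ABCF3, with means of 38.8, 27.9, 21.5, 21.3, 21.2 and 18.0 CPM per kb. There ABCF2 and ABCF1 stood apart from the rest in both libraries, and the others overlapped in part.

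**Figure D2:**
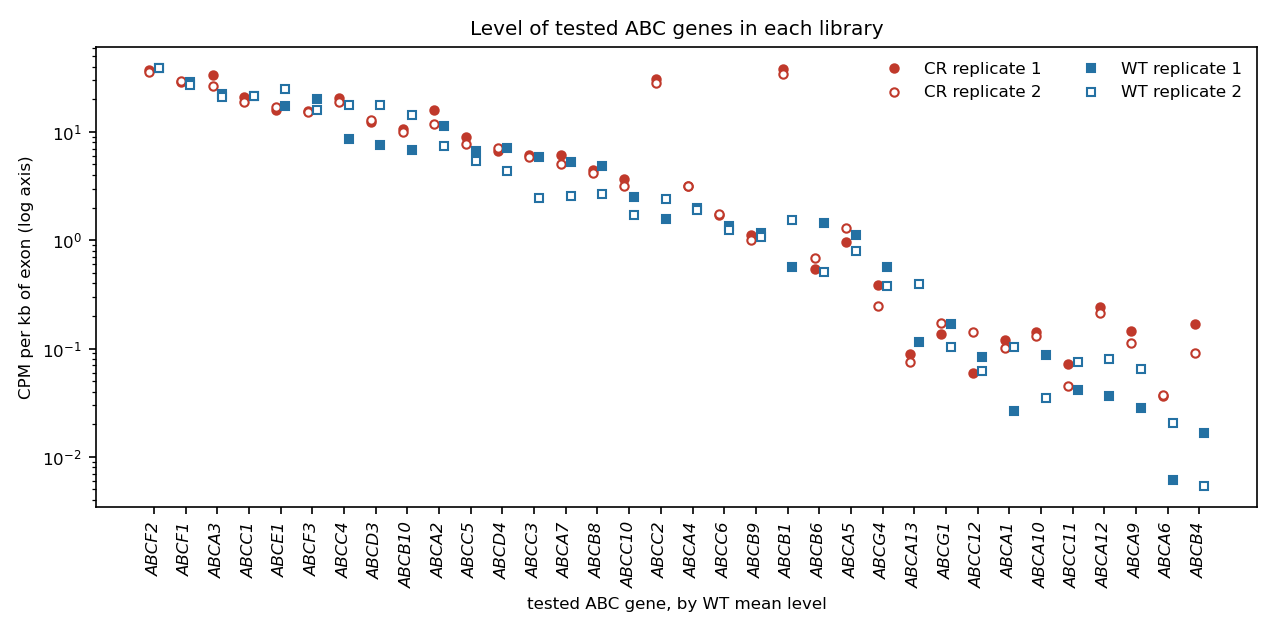
Level of each tested ABC gene reported here in each library, as CPM per kb of exon on a log axis, with genes ordered by their WT mean from left to right and circles for CR beside squares for WT (filled for replicate 1, open for replicate 2). ABCB1 and ABCC2 sit at 28.3 to 38.2 CPM per kb in CR and at 0.561 to 2.42 CPM per kb in WT, while ABCF2 lies at 35.4 to 38.9 CPM per kb in all libraries.

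ABCC1 (MRP1), an exporter of glutathione conjugates, served as a yardstick within each library, since its levels were nearly equal in the lines. That choice rests on these same data, so changes in the ratios between lines restate the differences given above. The ratio of ABCB1 to ABCC1, per kb, was 1.82 and 1.79 in CR, against 0.0263 and 0.0711 in WT. For ABCC2 to ABCC1 it was 1.46 and 1.49 in CR, against 0.0734 and 0.113 in WT. Per kb, both exporters exceeded ABCC1 in each CR library and fell below it in each WT library.

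The family as a whole took 0.240% and 0.219% of all counts in CR, against 0.157% and 0.161% in WT. Summed per kb of exon, the family reached 345 and 318 CPM per kb in CR, against 243 and 254 CPM per kb in WT. Without ABCB1 and ABCC2 the sums were 276 and 256 CPM per kb in CR, against 241 and 250 CPM per kb in WT, so these genes made up most of the gap. ABCB1 alone formed 11.1% and 10.7% of the summed level in CR, against 0.230% and 0.600% in WT. For ABCC2 these shares were 8.92% and 8.88% in CR, against 0.642% and 0.954% in WT. The ABCF genes formed 23.7% and 25.1% of the sum in CR, against 35.9% and 32.3% in WT, and the ABCG genes at most 0.310% in any library. The sums were not tested. An exact permutation test with 2 libraries a group has a smallest two-sided p of 0.333.

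**Figure D3:**
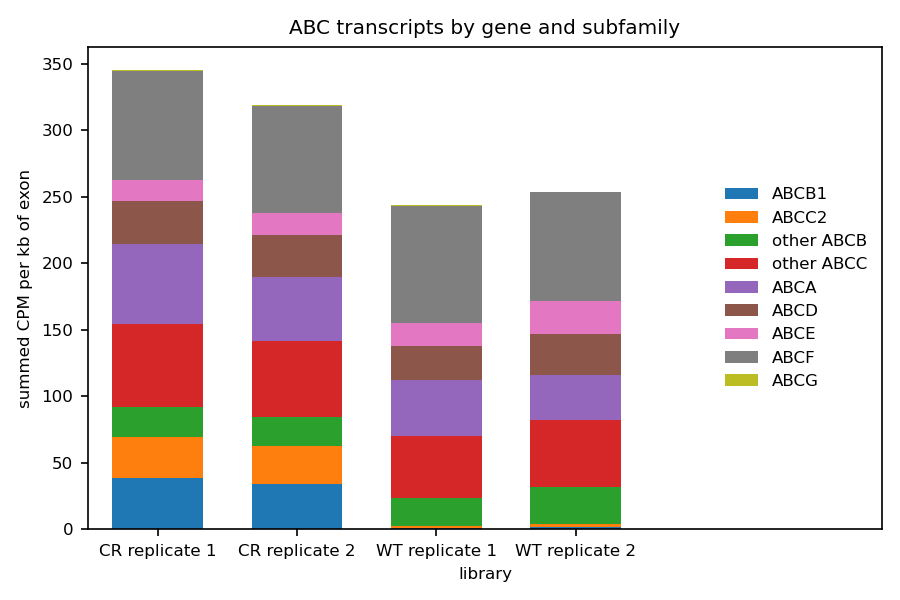
Summed level of the 45 ABC genes in each library (CPM per kb of exon, linear axis from 0), with CR libraries left of WT libraries and the segments of each bar showing ABCB1, ABCC2 and the subfamilies. The bars reach 345 and 318 CPM per kb in CR and 243 and 254 CPM per kb in WT, and the ABCB1 and ABCC2 segments are visible almost only in CR.

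The exporters of drugs and conjugates numbered 11, of which 10 were tested and 2, ABCB1 and ABCC2, passed (higher, 0 lower). Over all genes tested, 5.44% passed as higher and 8.1% as lower. The group's median log2 fold change was 0.50. ABCC4 (MRP4), an exporter of cyclic nucleotides and prostanoids, had 176 and 164 CPM in CR, against 74.0 and 153 CPM in WT. The CR libraries exceeded both WT libraries, yet the WT libraries differed 2.07-fold and the gene did not pass (log2 fold change 0.58, edgeR adjusted p = 0.345). It was called higher without WT replicate 2 (1.20, edgeR adjusted p = 4.25e-13), where 22.4% of all genes were, and not without WT replicate 1 (0.15, edgeR adjusted p = 0.454). ABCC3 (MRP3), a basolateral exporter of glucuronides, had 58.5 and 55.8 CPM in CR, against 56.4 and 23.5 CPM in WT, with overlapping groups (edgeR adjusted p = 0.487). ABCC5 (MRP5), an exporter of cyclic GMP, had 103 and 88.1 CPM in CR, against 76.2 and 61.1 CPM in WT (log2 fold change 0.47, edgeR adjusted p = 0.225). ABCC10 (MRP7), which carries taxanes, had 29.9 and 25.6 CPM in CR, against 20.3 and 13.7 CPM in WT (log2 fold change 0.71, edgeR adjusted p = 0.156). In ABCC5 and ABCC10 the groups did not overlap, with CR above WT as in 27% of all genes tested, and neither passed.

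ABCC1 showed no detectable difference, at 159 and 144 CPM in CR and 161 and 162 CPM in WT (log2 fold change -0.09, edgeR adjusted p = 0.815). ABCC6, whose loss causes ectopic calcification, had 13.0 and 13.3 CPM in CR, against 10.2 and 9.42 CPM in WT (edgeR adjusted p = 0.348). Its counts are uncertain, because 15.0% of its 50-base words recur in other transcripts, chiefly of the pseudogene ABCC6P1, which had 42 and 31 counts in CR and 33 and 27 in WT. ABCC11 and ABCC12 had at most 1.23 CPM in any library. ABCC11 overlaps LONP2 on the opposite strand, which had 3804 and 2992 counts in CR and 3146 and 3842 in WT, so its counts are uncertain. ABCG2, the breast cancer resistance protein and with ABCB1 and ABCC1 a classic exporter of multidrug resistance, was close to absent, with 2 and 0 counts in CR and 1 and 0 counts in WT. At these depths its level was not above the floor of 3 counts in either group and no fold is given.

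Of the bile acid and phospholipid exporters, ABCB4 passed as described and ABCB11, the bile salt export pump of liver, had 0 counts in all libraries. The 16 sterol and lipid exporters had 13 tested members, of which ABCA12 alone passed as higher (5.44% of all genes tested did). Their median log2 fold change was 0.56, against -0.01 for all genes tested. Of the 13, ABCA1, ABCA6, ABCA9, ABCA10 and ABCA12 entered the test through CR, which favours positive values in this median. ABCA3, the surfactant lipid transporter, was the most abundant of the 16 per kb. It had 263 and 207 CPM in CR, against 173 and 163 CPM in WT. It did not overlap between groups and did not pass (log2 fold change 0.48, edgeR adjusted p = 0.174). Its span overlaps the pseudogene ABCA17P on the opposite strand, which had 400 and 425 counts in CR and 382 and 296 in WT. ABCA2, a lysosomal lipid transporter best known from brain, had 182 and 137 CPM in CR, against 131 and 84.5 CPM in WT (edgeR adjusted p = 0.251). ABCA1, the cholesterol and phospholipid exporter that forms high-density lipoprotein, had 1.35 and 1.15 CPM in CR, against 0.300 and 1.17 CPM in WT, with overlapping groups. Overlap was also seen in ABCA7, a relative of ABCA1, with 51.5 and 41.9 CPM in CR, against 43.8 and 21.6 CPM in WT. The sterol transporters ABCG1 and ABCG4 reached at most 3.56 CPM in every library and overlapped too.

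ABCA13, a very large lipid transporter, had the most negative log2 fold change of any member and did not pass. It had 1.71 and 1.43 CPM in CR, against 2.18 and 7.58 CPM in WT (log2 fold change -1.63, SE 0.60, edgeR adjusted p = 0.139). The WT libraries differed 3.47-fold, and CR lay below both. It passed with DESeq2 (adjusted p = 0.0474), with edgeR and no low-count filter (0.0135) and without WT replicate 1 (4.53e-13), where the log2 fold change was -2.26. Without WT replicate 2 the log2 fold change was -0.47 (edgeR adjusted p = 0.365).

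In an ABCA cluster on chromosome 17, none of the tested genes passed. ABCA9 had 1.31 and 1.02 CPM in CR, against 0.257 and 0.586 CPM in WT (log2 fold change 1.46, edgeR adjusted p = 0.157). ABCA6 had 0.518 and 0.532 CPM in CR, against 0.0857 and 0.293 CPM in WT (1.44, edgeR adjusted p = 0.257). ABCA10 had 1.19 and 1.10 CPM in CR, against 0.728 and 0.293 CPM in WT (1.17, edgeR adjusted p = 0.255). Both CR libraries lay above both WT libraries in these 3 genes, which held for 27% of all genes tested. Each of the 3 had 2 libraries over the low-count filter in CR and not in WT, so they entered the test through CR. Their neighbour ABCA5, at 12.7 and 16.9 CPM in CR and 14.8 and 10.6 CPM in WT, overlapped between groups, and the cluster's ABCA8 had at most 1 count in any library. ABCA10 overlaps ABCA5 on the same strand, so its counts are uncertain.

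Among the organelle transporters no member passed in either direction. The 4 mitochondrial members, which serve iron-sulfur cluster and haem metabolism, had a median log2 fold change of -0.24, with 0 calls (edgeR, 0 at an unadjusted p of 0.05, and 0 by DESeq2 and limma-voom). ABCB10, which supports haem synthesis in erythroid cells, had 45.2 and 42.7 CPM in CR, which lay between the WT libraries at 28.8 and 61.3 CPM. ABCB6 had 2.83 and 3.56 CPM in CR, against 7.54 and 2.64 CPM in WT, and 90.8% of its 50-base words recur in other transcripts, chiefly of an annotated readthrough gene, so its count is uncertain. ABCB8 had 41.9 and 39.0 CPM in CR, against 44.9 and 25.2 CPM in WT, and overlapped. Calls appeared among the mitochondrial members when either WT library was dropped, where calls over all genes increased too.

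The lysosomal transporters ABCB9, a peptide carrier, and ABCD4, which exports cobalamin, gave 0 calls of 2 (edgeR, 0 at an unadjusted p of 0.05, and 0 by DESeq2 and limma-voom). Of the peroxisomal fatty acid transporters, 2 were tested and neither passed (edgeR, 0 at an unadjusted p of 0.05, and 0 by DESeq2 and limma-voom). ABCD3, a protein of the peroxisomal membrane, had 93.4 and 98.1 CPM in CR, inside the wide range of 57.9 and 135 CPM in WT. ABCD2 had 1 count in all. Dropping either WT library gave calls among the lysosomal or peroxisomal members, where calls over all genes increased too.

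The soluble members had high levels in both lines. ABCF2 had 157 and 148 CPM in CR and 161 and 163 CPM in WT (log2 fold change -0.09, edgeR adjusted p = 0.824). ABCF1, which acts in translation initiation, had 131 and 133 CPM in CR and 129 and 123 CPM in WT (0.06, edgeR adjusted p = 0.880). ABCE1, the ribosome recycling factor, had 100.3 and 107 CPM in CR, against 109 and 157 CPM in WT (-0.36, edgeR adjusted p = 0.401). Its counts and its rank are uncertain, since 11.6% of its 50-base words recur in other transcripts. It also overlaps OTUD4 on the opposite strand, which had 1756 and 1513 counts in CR and 1124 and 1925 in WT. ABCF3 had 80.4 and 79.6 CPM in CR, against 105 and 82.4 CPM in WT. With a median log2 fold change of -0.16, the 4 genes gave 0 calls (edgeR, 0 at an unadjusted p of 0.05, and 0 by DESeq2 and limma-voom). With either WT library dropped, a lower call appeared among them, where calls over all genes increased too. For ABCF2, 53.5% of the 50-base words recur in other transcripts, chiefly of an annotated readthrough gene, so its count and rank are uncertain.

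The 9 untested members were at or near 0 in both lines. ABCB11 and the sulfonylurea receptor ABCC9 had 0 counts, and the other 7 had at most 10 counts over the 4 libraries. ABCC8, the pancreatic sulfonylurea receptor, had 4 and 2 counts in CR and 1 and 0 in WT. ABCB5 had 0 and 2 counts in CR and 0 and 8 in WT. The sterol exporter ABCG5 had 1 and 0 counts in CR and 1 and 7 in WT, and its partner ABCG8 had 3 and 1 in CR and 0 and 1 in WT. At this depth no difference was detectable in these genes.

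Spread between replicates was unequal in the family. The median absolute log2 ratio between replicates, with a pseudocount of 0.1 CPM, was 0.16 in CR and 0.63 in WT for tested members, and 0.16 in CR and 0.43 in WT for all genes tested. Of 24 members with at least 10 CPM in a group, 0 differed 2-fold or more between the CR libraries (at most 1.34-fold) and 6 did so between the WT libraries (at most 2.71-fold).

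ABCB1 and ABCB4 lie in tandem on chromosome 7, and the neighbours on the ABCB4 side were higher in CR too. CROT, the peroxisomal carnitine octanoyltransferase (chromosome 7, 87345681 to 87399795, plus strand), ends 1902 bp from ABCB4. It had 257 and 258 counts in CR, against 5 and 1 in WT, which is 10.2 and 10.6 CPM in CR, against 0.214 and 0.0419 CPM in WT. The ratio was 81.8 (log2 fold change 6.30, SE 0.55, edgeR adjusted p = 0.000684). It rests on 6 counts in WT, and its exact 95% binomial interval, for counting error only, was 37.3 to 224. TP53TG1, a long noncoding RNA that starts 166 bp from CROT on the other strand (chromosome 7, 87325225 to 87345515), had 19 and 22 counts in CR and 0 in both WT libraries. It was at least 13.0-fold higher with a floor of 3 counts over the group (edgeR adjusted p = 0.0106). ABCB4, CROT and TP53TG1 stayed below the low-count filter's minimum of 10 counts in both WT libraries, so they entered the test through CR.

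Calls did not continue over the whole region. Within 500 kb of ABCB1, 12 other genes were tested, of which 4 were higher and 0 lower. The shares over all genes tested were 5.44% higher and 8.1% lower. Besides the 3 neighbours just named, KIAA1324L, 443934 bp away, had 21 and 22 counts in CR, against 4 and 3 in WT (log2 fold change 2.51, edgeR adjusted p = 0.0319). It also entered the test through CR. The genes in between, DMTF1, TMEM243 and the antisense RNA ENSG00000224046, did not pass (log2 fold changes -0.45, 0.37 and -0.97, edgeR adjusted p = 0.225, 0.501 and 0.327). On the other side SLC25A40, DBF4, ADAM22 and SRI lay between -0.35 and 0.18 and did not pass either. RUNDC3B, which overlaps the 5′ part of ABCB1 on the opposite strand, had 7 and 6 counts in CR, against 10 and 31 in WT (log2 fold change -1.70, edgeR adjusted p = 0.181). The strand setting of the counting is not given in the sources used here, and without strand the reads of ABCB1 and RUNDC3B cannot be told apart where their exons overlap.

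**Figure D4:**
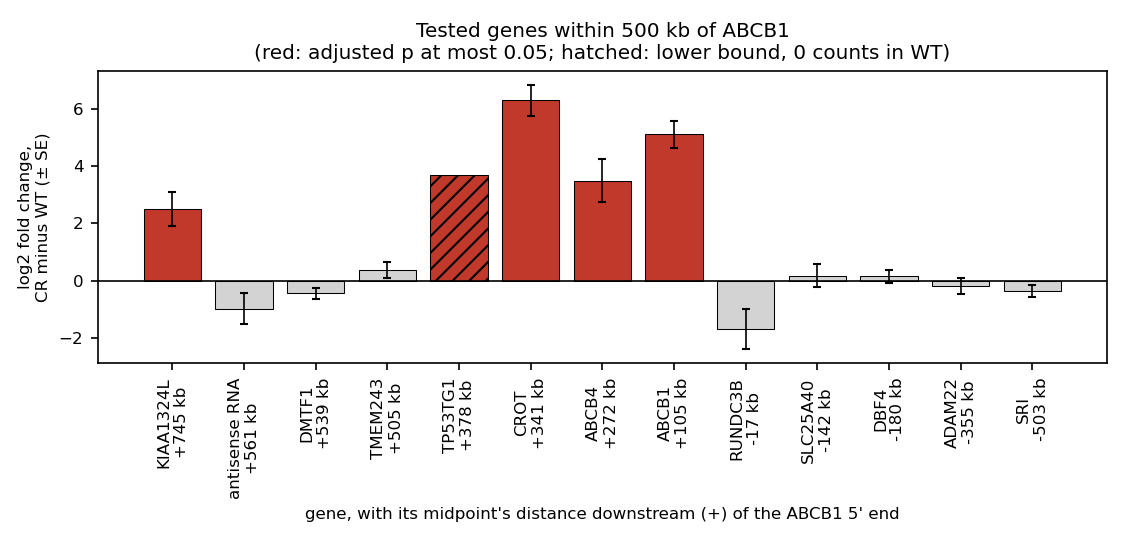
Log2 fold change (CR minus WT, with SE) of the tested genes within 500 kb of ABCB1, in chromosome order, each labelled with the distance of its midpoint from the ABCB1 start. Red bars are genes past the threshold: TP53TG1 (hatched, drawn at its lower bound because WT had 0 counts), CROT, ABCB4 and ABCB1 stand together, KIAA1324L stands apart, and the grey bars on both sides did not pass.

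The CROT window is shown to describe the base composition of a neighbour of ABCB1 that was also called higher. It covers chr7:87345414-87345713 on the plus strand (RefSeq, GRCh38.p14), is drawn as before with each CpG in capitals, and also contains the annotated 5′ end of TP53TG1.
CROT: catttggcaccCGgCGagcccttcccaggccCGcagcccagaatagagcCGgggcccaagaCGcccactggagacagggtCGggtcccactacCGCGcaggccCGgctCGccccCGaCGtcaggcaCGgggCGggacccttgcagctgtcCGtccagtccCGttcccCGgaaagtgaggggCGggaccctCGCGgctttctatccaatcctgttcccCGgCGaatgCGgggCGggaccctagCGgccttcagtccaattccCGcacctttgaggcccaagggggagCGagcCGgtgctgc

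With 28 CpG and a GC content of 70.0%, the CROT window held more CpG than 74.1% of promoters. It matched the SP1 box at -122, -72 and -22 and the CCAAT box at -47 and 4, counted from the start, and none of the other 3 motifs. Whether base composition bears on the difference between the lines was not tested.

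Within 500 kb of ABCC2, 13 other genes were tested and 1 was higher, SCD, the stearoyl-CoA desaturase, at a distance of 494530 bp (log2 fold change 1.21, edgeR adjusted p = 0.016). The others reached down to a log2 fold change of -0.47, and 0 were lower by the test. Around ABCA12, 4 genes were tested and 1, the fibronectin gene FN1, was lower (log2 fold change -1.15, edgeR adjusted p = 0.047). For comparison, 5.44% of all genes tested were higher and 8.1% lower.

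Genes of ABC proteins that carry other symbols were lower in CR. CFTR, the epithelial chloride channel of the ABCC group, had 0.557 and 1.02 CPM in CR, against 3.90 and 6.41 CPM in WT (log2 fold change -2.70, edgeR adjusted p = 0.0114). TAP1 and TAP2, the ABCB proteins that load peptides for HLA class I, were lower as well. TAP1 had 72.5 and 62.9 CPM in CR, against 175 and 204 CPM in WT (-1.49, edgeR adjusted p = 0.00393). TAP2 had 24.3 and 24.9 CPM in CR, against 44.3 and 47.6 CPM in WT (-0.90, edgeR adjusted p = 0.0335). In all 3 both CR libraries lay below both WT libraries, which held for 28.2% of all genes tested, and 8.1% of all genes were called lower. Without CR replicate 1 or CR replicate 2, 2 of the 3 were called.

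Of 14 genes whose proteins work with ABC transporters, 12 were tested, 4 were lower and 0 higher, where 8.1% of all genes tested were lower and 5.44% higher. APOE, a lipid acceptor for ABCA1, had 0.358 and 0.409 CPM in CR, against 3.68 and 7.08 CPM in WT (log2 fold change -3.79, edgeR adjusted p = 0.00387). Moesin (MSN), which ties membrane proteins to actin, had 516 and 440 CPM in CR, against 1021 and 1254 CPM in WT (-1.25, edgeR adjusted p = 0.00572). PDZK1, a scaffold that binds ABCC2 and CFTR, had 13.6 and 12.7 CPM in CR, against 31.1 and 46.1 CPM in WT (-1.55, edgeR adjusted p = 0.0109). TAPBP, which bridges TAP to HLA class I, had 146 and 147 CPM in CR, against 303 and 283 CPM in WT (-1.003, edgeR adjusted p = 0.00999). Leaving out CR replicate 1 gave 3 lower and leaving out CR replicate 2 gave 2. The calls also changed when either WT library was left out, where calls over all genes increased too.

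Of 17 transcription factors and nuclear receptors known to control ABC genes, 15 were tested and 0 passed with edgeR. The share over all genes tested was 13.5% in either direction. At an unadjusted p of 0.05, 3 of the 15 passed in edgeR, where 26.1% of all genes tested did. DESeq2 and limma-voom called 0 of the 15. Dropping either WT library gave calls in both directions among these factors, where calls over all genes increased too. The pregnane X receptor NR1I2, a classic inducer of ABCB1 in liver, had 3 and 2 counts in CR and 0 and 3 in WT. Of 11 organic anion uptake carriers of the SLCO family, 4 were tested and 0 passed (edgeR, 1 at an unadjusted p of 0.05, and 1 higher by each of DESeq2 and limma-voom). The carrier nearest the threshold, named after its values were seen, was SLCO4A1, with 105 and 102 CPM in CR, against 57.1 and 27.0 CPM in WT (log2 fold change 1.29, edgeR adjusted p = 0.0563). Leaving out either WT library gave a higher call among the carriers, where calls over all genes increased too.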

How the data were processed

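Polyadenylated RNA was extracted with a miRNeasy kit and made into strand-marked libraries, per the labels' protocols. The authors deposited whole-number counts per Ensembl gene for the 4 libraries. STAR 2.5.1a, HTSeq, DESeq and build GRCh38.p7 are named, without role or order, per the submitters' processing notes. The sources used here do not give the annotation release or the strand setting. The deposited normalized table was not used.

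All genes were fitted with edgeR 4.0.16 in R 4.3.3 (TMM factors, filterByExpr with a minimum count of 10, robust quasi-likelihood test on group alone, two-sided). P-values were adjusted by Benjamini-Hochberg over 17304 tested genes of 32907 with a count, at a threshold of 0.05. The code was tested on simulated data. SEs were back-calculated from the log2 fold change and the F statistic. CPM uses TMM-scaled library sizes; folds are ratios of summed counts so scaled, with exact binomial 95% intervals. CPM per kb uses the union of GENCODE 29 exons; 57447 identifiers of the table were found there, and its GRCh38 coordinates are given. Promoters came from RefSeq (GRCh38.p14).

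Named were all members past the threshold, with an absolute log2 fold change of at least 1, among the 10 highest per kb or with calls that depend on a setting; the others by role. Some members are not reported here. Members and gene lists were chosen with earlier results of these data known. Replicate numbers were not used to pair the libraries in the main fit, since the labels do not say whether equal numbers share a batch. Deviations of same-numbered libraries correlated at -0.17 over 17304 genes. Alternatives were other scalings and low-count filters, DESeq2 1.42.0, limma-voom 3.58.1, no robust estimation, a replicate block, and leaving out each library.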

Additional observations from a re-analysis of the deposited data

How the results depend on the processing

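ABCB1 and ABCC2 were called higher in CR under every alternative run, with log2 fold changes of 4.57 to 6.01 and 3.61 to 4.24 over the fits that left out 1 library. ABCB4 ranged from 2.92 to 4.43 and ABCA12 from 1.50 to 2.62 in those fits. ABCA12 was not called with DESeq2 size factors (log2 fold change 1.95). Members called higher numbered 2 with the stricter low-count filter (minimum count 50), which left ABCB4 and ABCA12 untested, and 2 to 17 over the fits without 1 library. Members called lower numbered 1 with no low-count filter, 1 with DESeq2 and 1 with a replicate block with crossed numbers, an alternative chosen after seeing the data, and 0 to 5 without 1 library. Over all genes, 1454 were higher with no low-count filter and 1671 with the crossed block, 565 to 3882 without 1 library, and 865 to 4004 were lower. Calls in the related lists numbered 4 to 16 without 1 library, against 7. The replicate block by number gave 4 higher and 0 lower members, with 1258 higher and 1517 lower genes over all, and the crossed block 5 (ABCC4 besides the 4) and 1 (ABCA13) members.

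Signs turned only in members that were not called. ABCB10 was at 0.024 with upper quartile factors, 0.015 with library size alone, 0.063 with limma-voom and 0.062 with the replicate block. ABCD3 was at 0.048, 0.036, 0.11 and 0.11 under the same settings and 0.016 with the stricter filter. ABCC11 was at -0.0050 with no filter. Without 1 library, log2 fold changes ran from -0.48 to 0.61 for ABCB10, -0.50 to 0.72 for ABCD3, -0.36 to 0.49 for ABCC11, -1.24 to 0.28 for ABCB6 and -0.15 to 0.69 for ABCB8. They ran from -0.17 to 0.0030 for ABCB9, -0.29 to 0.94 for ABCC12, -0.031 to 0.67 for ABCD4 and -0.11 to 0.59 for ABCG1. The cause was not tested. The same 10 genes had the highest mean level per kb when the longest transcript served as length. With 2 libraries a group and a wide WT pair, small differences of single members could not be resolved.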

Other observations

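Of 15 pseudogene or antisense genes named after the family, other than ABCC13, ABCA17P had 400 and 425 counts in CR and 382 and 296 in WT, and ABCA11P had 5 and 10 counts in CR and 25 and 18 in WT. Neither was called, nor was ABCC6P1, and the other 12 had at most 4 counts in all.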
